A study of Mus musculus with 95 samples.

Results

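The transcription factor genes of the naive pluripotent state described here are the Krüppel-like genes Klf2, Klf4 and Klf5, the orphan nuclear receptor genes Esrrb and Nr0b1, and Tfcp2l1, Tbx3, Prdm14 and Zfp42. These 9 genes were taken by name from the 23377 genes of the deposited gene count table, and all 9 passed the filter on low counts that left 15464 genes for testing. They were followed over 14 RNA-seq libraries, 2 from each of 7 genotypes of E14 mouse embryonic stem cells. They were also followed over 80 deposited lists of ChIP-seq peaks from the same series of 95 samples. Among these lists are some from Ezh1/2-/- cells. Others are from cells labelled shMGA, shMGAdHLH, shE2F6, shE2F6-MGAdHLH, shUsf1, shUsf2 and shCtr. The series asked what each class of Polycomb repressive complex 1 (PRC1) does, by deleting the PCGF subunits that define the classes.

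The genotypes were wild-type E14, Pcgf1-/-, Pcgf2/4-/-, Pcgf3/5-/-, Pcgf6-/-, Pcgf1/2/4-/- and Pcgf3/5/6-/-. A few ChIP lists come from a further line, Ring1a-/- with floxed Ring1b and CreERT2 at Rosa26, before and after loss of RING1B (Ring1a/b-/-). Every line was grown on gelatin in serum medium with LIF, 3 µM of the GSK3 inhibitor CHIR99021 and 1 µM of the MEK inhibitor PD0325901, so the wild-type libraries also came from inhibitor-treated cells. Knockouts were made with Cas9 and guide RNAs from a plasmid, under puromycin, and the lines with several deletions were built from edited clones. The headers of the count table give both libraries of a knockout the same numbered name, so each genotype is read as 1 clone, and genotype and clone cannot be told apart. For Pcgf6-/- the authors' deposited tables of comparisons carry a different number in the name than the count table does. Nothing in the labels says that the 2 libraries of a genotype came from separate cultures, so the p-values measure the spread between these libraries, which may be technical.

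Mouse embryonic stem cells in the naive state resemble the early epiblast of the blastocyst. A group of auxiliary transcription factors, to which these genes belong, holds that state together with OCT4, SOX2 and NANOG. KLF4 and TBX3 act downstream of LIF, which signals through the receptor chains LIFR and IL6ST to STAT3; TFCP2L1 is another STAT3 target, and ESRRB is released from repression by TCF7L1 when GSK3 is inhibited. KLF2 is stabilised when MEK is inhibited, PRDM14 restrains FGF receptor signalling, NR0B1 (DAX1) is an orphan nuclear receptor that binds OCT4 and NR5A2, and ZFP42 (REX1) is the marker most used to report the naive state. PRC1 complexes place ubiquitin on histone H2A (the mark H2AK119ub1) through RING1A or RING1B, and PRC2, which holds SUZ12, methylates histone H3 (the mark H3K27me3). H3K4me3 marks the starts of active genes.

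Promoters of 4 members are shown because the results below turn on them. Klf2 fell in both lines with 3 deletions, Nr0b1 had the largest fall of any member in a knockout, Klf4 was the only 1 of the 6 matched members whose promoter held an E-box, and Esrrb was the only member with a Polycomb peak at a start in wild-type cells. Each runs 5′ to 3′ on the gene's strand from 250 bases before to 50 bases after a RefSeq start. The sequences come from the GRCm38.p6 table and were each found at 1 place in NCBIM37 (mm9), whose coordinates are given. Capitals mark the 8 letters GGGCGGGG of KLF and SP family sites and the 6 letters CACGTG of the E-box read by MGA, MAX, MYC and USF, on either strand.
Klf2, chr8:74842711-74843010, plus strand: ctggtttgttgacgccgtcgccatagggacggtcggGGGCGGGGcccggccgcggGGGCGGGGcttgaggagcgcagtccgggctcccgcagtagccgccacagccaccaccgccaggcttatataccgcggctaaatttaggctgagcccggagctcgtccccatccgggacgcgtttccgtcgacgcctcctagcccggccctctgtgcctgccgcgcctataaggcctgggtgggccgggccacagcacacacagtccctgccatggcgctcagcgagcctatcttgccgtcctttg
Klf4, chr4:55545298-55545597, minus strand: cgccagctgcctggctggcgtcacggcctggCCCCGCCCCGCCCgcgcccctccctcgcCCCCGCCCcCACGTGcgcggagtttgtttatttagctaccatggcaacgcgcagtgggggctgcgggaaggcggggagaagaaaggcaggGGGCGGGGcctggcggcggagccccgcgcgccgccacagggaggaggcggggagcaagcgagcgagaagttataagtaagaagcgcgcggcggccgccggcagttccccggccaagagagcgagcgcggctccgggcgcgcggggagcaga
Esrrb, chr12:87762344-87762643, plus strand: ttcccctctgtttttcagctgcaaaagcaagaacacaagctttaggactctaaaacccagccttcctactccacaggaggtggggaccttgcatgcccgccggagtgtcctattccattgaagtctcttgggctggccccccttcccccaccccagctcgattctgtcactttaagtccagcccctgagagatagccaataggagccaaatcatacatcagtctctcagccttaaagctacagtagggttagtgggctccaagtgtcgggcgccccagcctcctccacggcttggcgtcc
Nr0b1, chrX:83436864-83437163, plus strand: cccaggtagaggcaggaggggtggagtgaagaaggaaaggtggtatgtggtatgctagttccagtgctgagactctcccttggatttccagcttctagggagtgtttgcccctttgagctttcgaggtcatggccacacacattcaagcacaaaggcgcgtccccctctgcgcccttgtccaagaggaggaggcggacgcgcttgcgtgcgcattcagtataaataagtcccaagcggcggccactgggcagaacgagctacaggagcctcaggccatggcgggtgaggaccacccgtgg

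The Klf2 promoter held 2 GGGCGGGG matches, at -214 and -195 from the start, and 32 CpG dinucleotides at a GC content of 69.3%. The Klf4 promoter held 4 matches of GGGCGGGG and 1 of CACGTG, the last at -182 from the start, with 40 CpG and a GC content of 74.3%. By contrast, neither the Esrrb promoter (7 CpG, GC content 55.3%) nor the Nr0b1 promoter (14 CpG, GC content 58.7%) held any of the 5 motifs searched. Those motifs were CACGTG, GGCGGGAA (E2F), GGGCGGGG, TCAAGGTCA (ESRRB) and TTCCNGGAA (STAT), each searched on both strands; the 2 KLF matches at -219 and -214 in Klf4 overlap. Over the 32851 promoters of the table, 7.15% held CACGTG, 2.19% GGCGGGAA, 17.6% GGGCGGGG, 0.423% TCAAGGTCA and 1.15% TTCCNGGAA, and the median promoter had 7 CpG and a GC content of 52.7%. Of the members with an entry, Zfp42 held 1 GGGCGGGG match and Tfcp2l1 none of the motifs; Klf5, Prdm14 and Tbx3 were not matched.

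The libraries held 2147968 to 7848161 counts, and depth followed genotype in part. The 2 wild-type libraries had 6827571 and 6967931 counts, while the 4 libraries labelled Pcgf1/2/4-/- and Pcgf3/5/6-/- had 2147968 to 3120754. The targeted transcripts checked the labels only in part, since a Cas9 edit need not remove the transcript. Pcgf1 had 66.06 and 61.04 CPM (counts scaled to the library total) in wild-type, 4.81 and 3.20 in Pcgf1-/- and 0.534 and 0.903 in Pcgf1/2/4-/-. Neither Pcgf6-/- library had a count for Pcgf6, whose wild-type levels were 36.2 and 34.3 CPM, but it had 42.0 and 37.2 CPM in the libraries labelled Pcgf3/5/6-/-, which are called by that label throughout. Pcgf2 and Bmi1 (PCGF4) transcripts were present in the lines named for them, as were Pcgf3 and Pcgf5. All 8 stem cell markers (Pou5f1, Sox2, Nanog, Lin28a, Tdgf1, Dppa5a, Sall4, Fgf4) had counts in every library, with summed levels from 1142 to 2736 CPM.

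Levels and differences below are in CPM scaled by TMM factors unless given per kilobase of exon, and a gene is called changed when edgeR's quasi-likelihood test over all 14 libraries gave a Benjamini-Hochberg adjusted p under 0.05 across the 15464 genes. Per kilobase, Zfp42 had the highest wild-type level at 174 CPM per kb. Nr0b1 (86.0), Tfcp2l1 (78.0), Tbx3 (60.6), Klf5 (56.6) and Esrrb (46.7) followed on the same scale. Klf4 (30.1), Prdm14 (25.5) and Klf2 (20.5) had the lowest levels per kb. The plot of levels by library shows both libraries of each genotype for every member.

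**Figure D1:**
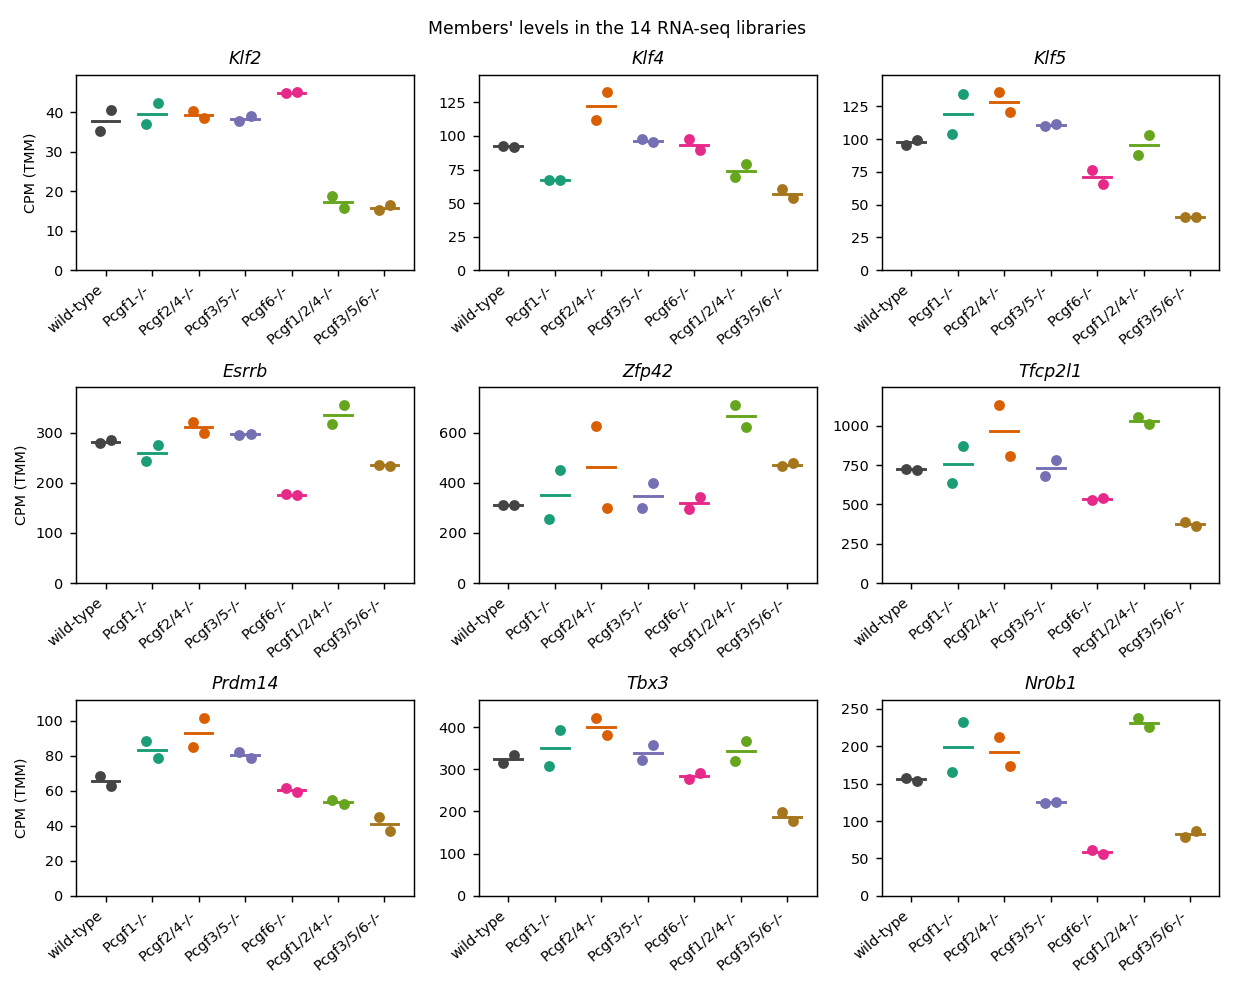
Level of each member (CPM, linear axis from 0) in the 7 genotypes; points are the 2 libraries of a genotype and the bar is their mean. Klf2 sits between 15.2 and 18.7 CPM in the 4 libraries of Pcgf1/2/4-/- and those labelled Pcgf3/5/6-/-, and at 35.2 CPM or more in the other 10; Nr0b1 is lowest in Pcgf6-/-, and the 2 Pcgf2/4-/- libraries stand far apart for Zfp42.

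The members did not move as one block. The libraries labelled Pcgf3/5/6-/- had 7 of the 9 genes below wild-type by the test, where 53.3% of all tested genes were called in either direction. Pcgf6-/- had 3 below (46.5% of genes called), Pcgf1/2/4-/- had 1 below and 2 above (37%), and Pcgf2/4-/- had 3 above (21.6%). In Pcgf1-/- there was 1 on each side (32.3%), and in Pcgf3/5-/- there was none (21.6%). Klf2 was the only member that fell in both lines with 3 deletions. Esrrb passed the test in Pcgf6-/-. In Pcgf1-/-, Pcgf1/2/4-/- and the libraries labelled Pcgf3/5/6-/- Esrrb passed only under some alternatives, and in Pcgf2/4-/- and Pcgf3/5-/- under none. Where knockouts were tested against each other, the difference is given gene by gene below. All 6 comparisons use the same 2 wild-type libraries.

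Klf2, at chr8:74842932-74845555 on NCBIM37, encodes a zinc finger factor of the Krüppel-like family. It had 35.2 and 40.5 CPM in wild-type, 37.1 and 42.3 in Pcgf1-/-, 40.2 and 38.6 in Pcgf2/4-/-, 37.7 and 39.1 in Pcgf3/5-/- and 44.9 and 45.0 in Pcgf6-/-. It had 18.7 and 15.8 CPM in Pcgf1/2/4-/- and 15.2 and 16.6 CPM in the libraries labelled Pcgf3/5/6-/-. Those 4 libraries were low and did not overlap the other 10; their counts were 35, 35, 48 and 49. The log2 fold change against wild-type was -1.14 (SE 0.16, adjusted p = 1.13e-04) in Pcgf1/2/4-/- and -1.26 (SE 0.15, adjusted p = 7.52e-06) in the libraries labelled Pcgf3/5/6-/-. Both calls held under all 14 alternatives (each setting tried other than the test against a log2 threshold of 1), with ranges of -1.31 to -0.83 and -1.38 to -0.97. Klf2 also fell from each part line to the line with 3 deletions, with log2 differences of -1.20 against Pcgf1-/-, -1.19 against Pcgf2/4-/-, -1.27 against Pcgf3/5-/- and -1.50 against Pcgf6-/-. In the order of its levels, the step from wild-type down to Pcgf1/2/4-/- was the only 1 of 6 neighbour steps that passed the test, and the 2 lowest genotypes differed by 0.11 (adjusted p = 0.697).

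Klf4, the Krüppel-like factor used in reprogramming, lies at chr4:55540013-55545347. It had 92.3 and 92.0 CPM in wild-type, 67.4 and 67.0 in Pcgf1-/-, 112 and 133 in Pcgf2/4-/-, 97.5 and 95.5 in Pcgf3/5-/- and 97.5 and 89.8 in Pcgf6-/-. The Pcgf1/2/4-/- libraries had 69.4 and 79.0 CPM, and the libraries labelled Pcgf3/5/6-/- had 60.3 and 53.7 CPM. Pcgf1-/-, Pcgf1/2/4-/- and the libraries labelled Pcgf3/5/6-/- were below both wild-type libraries, and Pcgf2/4-/- and Pcgf3/5-/- were above them. Klf4 fell by 0.69 on the log2 scale (SE 0.12, adjusted p = 1.83e-04) in the libraries labelled Pcgf3/5/6-/- and by 0.45 (SE 0.11, adjusted p = 0.00571) in Pcgf1-/-. It rose by 0.42 (SE 0.11, adjusted p = 0.0126) in Pcgf2/4-/-, while the value in Pcgf1/2/4-/- was -0.31 (SE 0.12, adjusted p = 0.0529). The call in Pcgf1-/- was lost without its replicate 2 (-0.34, adjusted p = 0.0908). The call in Pcgf2/4-/- was lost without either wild-type library (adjusted p = 0.0869 and 0.0895) and without Pcgf2/4-/- replicate 2 (0.28, adjusted p = 0.0842). With libraries thinned to the smallest total the Pcgf2/4-/- call was also lost (0.43, adjusted p = 0.0614). The fit on 2 groups alone lost it too (0.47, adjusted p = 0.0921), and it held in 9 of 14 alternatives. Klf4 differed between Pcgf1/2/4-/- and Pcgf2/4-/- by -0.73 (SE 0.12), a call that held in all alternatives.

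Klf5, the third Krüppel-like factor, lies at chr14:99697910-99712624. Its levels were 95.9 and 99.0 CPM in wild-type, 104 and 134 in Pcgf1-/-, 136 and 121 in Pcgf2/4-/-, 110 and 111 in Pcgf3/5-/- and 76.3 and 65.6 in Pcgf6-/-. There were 87.6 and 103 CPM in Pcgf1/2/4-/-, and the libraries labelled Pcgf3/5/6-/- had 40.8 and 40.2 CPM, the lowest of the 14. The fall there was 1.27 on the log2 scale (SE 0.15, adjusted p = 7.02e-06), larger than in Pcgf6-/-, where it was 0.46 (SE 0.13, adjusted p = 0.0105). The step between these genotypes passed the test itself, at 0.81 (SE 0.15, adjusted p = 5.17e-04). Klf5 rose by 0.39 (SE 0.13, adjusted p = 0.0494) in Pcgf2/4-/-, a call lost in 7 of 14 alternatives, among them without either wild-type library (adjusted p = 0.216 and 0.158) and without Pcgf2/4-/- replicate 1 (0.33, adjusted p = 0.0708). The call in Pcgf6-/- was lost without wild-type replicate 2 (-0.43, adjusted p = 0.0639) and without Pcgf6-/- replicate 2 (-0.35, adjusted p = 0.122).

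Nr0b1 lies at chrX:83437103-83441286 on the X chromosome. Its levels were 158 and 153 CPM in wild-type, 166 and 232 in Pcgf1-/-, 212 and 173 in Pcgf2/4-/-, 125 and 126 in Pcgf3/5-/- and 60.9 and 56.2 in Pcgf6-/-. It had 238 and 225 CPM in Pcgf1/2/4-/-, and the libraries labelled Pcgf3/5/6-/- had 78.4 and 87.2 CPM. The 4 libraries without PCGF6 by label were the lowest, with no overlap with the other 10. The log2 fold change was -1.41 (SE 0.16, adjusted p = 6.28e-06) in Pcgf6-/- and -0.91 (SE 0.16, adjusted p = 3.00e-04) in the libraries labelled Pcgf3/5/6-/-, and both calls held in all alternatives. The order Pcgf3/5-/- above the libraries labelled Pcgf3/5/6-/- above Pcgf6-/- passed the test at both steps (0.60, adjusted p = 0.00674, and 0.50, adjusted p = 0.0235). The upper step lost its call without the replicate 1 labelled Pcgf3/5/6-/- (lower minus upper -0.53, adjusted p = 0.0663), and the lower step lost it when any 1 of its 4 libraries was left out (adjusted p = 0.0558 to 0.135) and was 0.15 (adjusted p = 0.289) with depth as a covariate. The value was 0.35 (SE 0.15, adjusted p = 0.101) in Pcgf1-/-, and 7 of 14 alternatives called it higher, DESeq2 among them (0.40, adjusted p = 0.0405). For Pcgf3/5-/- it was -0.31 (SE 0.16, adjusted p = 0.180), and 4 of 14 alternatives called it lower. In Pcgf1/2/4-/- Nr0b1 rose by 0.57 (SE 0.16, adjusted p = 0.0123). That call was lost without either wild-type library (adjusted p = 0.0611 and 0.0763) or Pcgf1/2/4-/- replicate 1 (0.55, adjusted p = 0.0524), and the value was 0.11 (adjusted p = 0.479) with depth as a covariate.

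Esrrb, an orphan nuclear receptor, had 280 and 285 CPM in wild-type, 243 and 276 in Pcgf1-/-, 321 and 300 in Pcgf2/4-/-, 296 and 298 in Pcgf3/5-/- and 178 and 175 in Pcgf6-/-. Pcgf1/2/4-/- had 317 and 355 CPM, and the libraries labelled Pcgf3/5/6-/- had 236 and 233 CPM. The Pcgf6-/- libraries stood lowest and below all others. The log2 fold change there was -0.68 (SE 0.14, adjusted p = 0.00101), and it ranged from -0.70 to -0.57 with the call kept in all alternatives. In the libraries labelled Pcgf3/5/6-/- the value was -0.27 (SE 0.14, adjusted p = 0.122), and the difference from Pcgf6-/- was 0.41 (SE 0.14, adjusted p = 0.0265). That difference lost its call when any 1 of its 4 libraries was left out (adjusted p = 0.0660 to 0.135). In Pcgf1/2/4-/- Esrrb had 0.25 and was not called by edgeR, but DESeq2 called it higher (0.34, adjusted p = 0.0203), as did the fit on those 2 groups alone (0.32, adjusted p = 1.63e-08). In the libraries labelled Pcgf3/5/6-/- it was called lower with the depth covariate (-0.37, adjusted p = 1.88e-04) and in the fit on 2 groups alone (-0.26, adjusted p = 1.83e-07).

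Tfcp2l1, a grainyhead-related factor encoded at chr1:120524522-120581744, had 725 and 721 CPM in wild-type, 635 and 874 in Pcgf1-/-, 1131 and 808 in Pcgf2/4-/-, 680 and 786 in Pcgf3/5-/- and 526 and 542 in Pcgf6-/-. Pcgf1/2/4-/- had 1055 and 1012 CPM, and the libraries labelled Pcgf3/5/6-/- had 388 and 363 CPM, below the other 12. Tfcp2l1 fell there by 0.95 on the log2 scale (SE 0.21, adjusted p = 0.00169). The value was -0.44 (SE 0.21, adjusted p = 0.102) in Pcgf6-/-, and 4 of 14 alternatives called it lower, density offsets among them (-0.35, adjusted p = 8.82e-06). In Pcgf1/2/4-/- it was 0.52 (SE 0.21, adjusted p = 0.0666). There 4 of 14 alternatives called it higher, among them RLE factors (0.60, adjusted p = 0.0376) and density offsets (0.18, adjusted p = 0.00707). The sign turned in Pcgf1/2/4-/- with offsets fitted by loess on the mean count (-0.41, adjusted p = 0.0316, called lower). It also turned with depth as a covariate (-0.10, adjusted p = 0.441).

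Tbx3, a T-box factor encoded at chr5:120120678-120134733, had 315 and 334 CPM in wild-type, 308 and 394 in Pcgf1-/-, 421 and 381 in Pcgf2/4-/-, 321 and 357 in Pcgf3/5-/- and 278 and 290 in Pcgf6-/-. Pcgf1/2/4-/- had 320 and 368 CPM, and the libraries labelled Pcgf3/5/6-/- had 198 and 178 CPM, again the lowest. The fall there was 0.79 on the log2 scale (SE 0.17, adjusted p = 0.00111), and the value ranged from -1.01 to -0.69 with the call kept in all alternatives. The step from Pcgf6-/- down to the libraries labelled Pcgf3/5/6-/- passed at 0.60 (adjusted p = 0.00927); it missed without replicate 2 of either genotype (adjusted p = 0.0572 and 0.0578). In Pcgf1/2/4-/- Tbx3 had 0.08 and was not called, but was called lower with loess offsets (-0.43, adjusted p = 0.0200) and higher in the fit on 2 groups alone (0.15, adjusted p = 0.00770).

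Prdm14, a PR-domain factor that is also needed for germ cells, is encoded at chr1:13103538-13117244. It had 68.2 and 62.7 CPM in wild-type, 88.5 and 78.6 in Pcgf1-/-, 85.0 and 102 in Pcgf2/4-/-, 82.1 and 78.6 in Pcgf3/5-/- and 61.8 and 59.3 in Pcgf6-/-. Pcgf1/2/4-/- had 55.0 and 52.4 CPM, and the libraries labelled Pcgf3/5/6-/- had 44.9 and 36.8 CPM. Pcgf1-/-, Pcgf2/4-/- and Pcgf3/5-/- were above both wild-type libraries and the other 3 knockouts below. Prdm14 fell by 0.68 (SE 0.13, adjusted p = 4.93e-04) in the libraries labelled Pcgf3/5/6-/- and rose by 0.53 (SE 0.12, adjusted p = 0.00518) in Pcgf2/4-/- and by 0.36 (SE 0.11, adjusted p = 0.0269) in Pcgf1-/-. The rise in Pcgf2/4-/- was lost without wild-type replicate 2 (0.47, adjusted p = 0.0673), and that in Pcgf1-/- was lost without either wild-type library (adjusted p = 0.0742 and 0.200) or Pcgf1-/- replicate 1 (0.26, adjusted p = 0.205). With libraries thinned to the smallest total, the Prdm14 call in Pcgf2/4-/- was also lost (0.41, adjusted p = 0.0677). That call held in 12 of 14 alternatives. The Pcgf1/2/4-/- libraries lay below both part lines, with differences of -0.65 (SE 0.13) from Pcgf1-/- and -0.82 (SE 0.13) from Pcgf2/4-/-. Both of these calls held in all alternatives.

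Zfp42, at chr8:44380422-44392363, had 314 and 311 CPM in wild-type, 256 and 450 in Pcgf1-/-, 628 and 299 in Pcgf2/4-/-, 299 and 399 in Pcgf3/5-/- and 298 and 344 in Pcgf6-/-. Pcgf1/2/4-/- had 711 and 622 CPM, and the libraries labelled Pcgf3/5/6-/- had 467 and 478 CPM. The shallower library of a pair had the higher level in all 4 single and paired knockouts, and the lines with 3 deletions, which were all shallow, were high. In raw counts Zfp42 ran from 1331 to 2391, a ratio of 1.80, while the library totals ran over a ratio of 3.65. For comparison, Klf2 counts ran over a ratio of 10.3 and Esrrb counts over 3.95. Zfp42 had 73.9 to 133 counts per 100 exonic bases over the libraries, a density above 99.5% of the tested genes with a length.

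**Figure D2:**
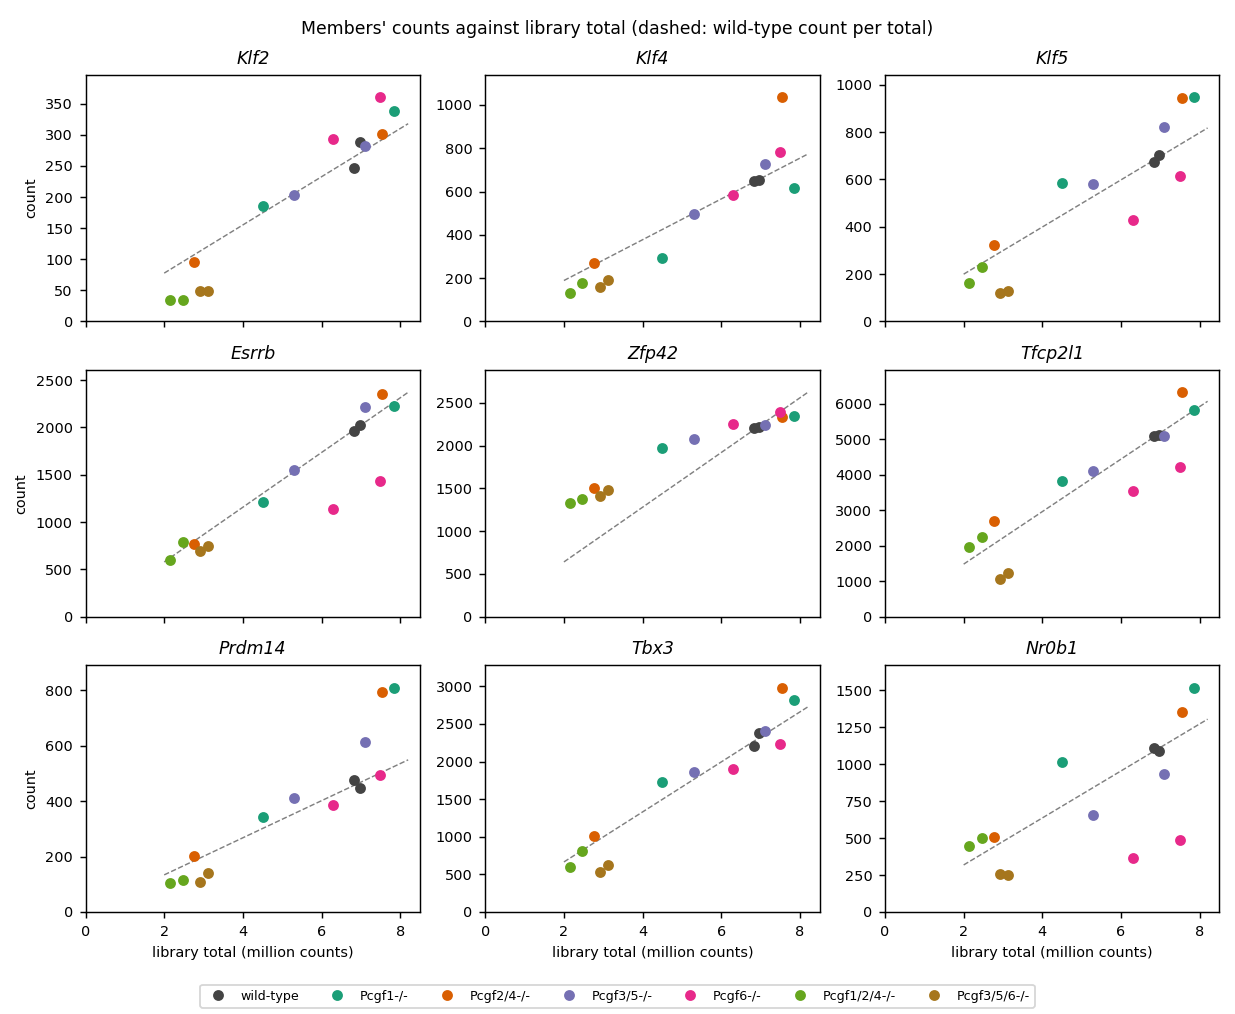
Raw count of each member (linear axis from 0) against the library total, coloured by genotype; the dashed line is the wild-type count per total. Zfp42 lies above the line in the 5 shallowest libraries, which come from 3 genotypes, while Klf2 lies below it in the 4 libraries of the lines with 3 deletions.

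Between the 2 Pcgf2/4-/- libraries, whose totals differed 2.73-fold, the Zfp42 count differed only 1.56-fold, a log2 CPM difference (deep minus shallow) of -1.07. Genes of the same count density showed a trend of -1.11 between those libraries. Between the Pcgf1-/- libraries, whose totals differed 1.74-fold, Zfp42 differed by -0.81 and its density trend was -0.79. Tfcp2l1, at a density above 91.1% of genes, differed by -0.49 and -0.46 in these 2 pairs, whereas Klf2, at 66.5%, differed by -0.06 and -0.19. The Zfp42 call in Pcgf1/2/4-/-, a rise of 1.09 (SE 0.31, adjusted p = 0.0140), was 0.45 with loess offsets and 0.17 (adjusted p = 0.0178) with offsets fitted on count density, an alternative added after the data were seen. It was -0.20 (adjusted p = 0.107) with depth as a covariate, and the call was lost without either wild-type library (adjusted p = 0.0730 and 0.0722) or Pcgf1/2/4-/- replicate 1 (adjusted p = 0.0759). In the libraries labelled Pcgf3/5/6-/- the value for Zfp42 was 0.60 (SE 0.31, adjusted p = 0.115). It was called higher with loess offsets (0.40, adjusted p = 0.00299) and density offsets (0.17, adjusted p = 0.0126). The fit on 2 groups alone also called it higher (0.60, adjusted p = 7.12e-21). With depth as a covariate it was called lower (-0.38, adjusted p = 4.42e-05). No direction is therefore given for Zfp42 in either line.

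Against wild-type, the libraries labelled Pcgf3/5/6-/- had 0 members higher and 7 lower, where 53.3% of all tested genes were called, 28% higher and 25.3% lower. The median log2 fold change was -0.79 over the members and 0.05 over all tested genes. Pcgf6-/- had 0 members higher and 3 lower, where 46.5% of tested genes were called, 27.8% higher and 18.6% lower, with medians of -0.19 and 0.03. For Pcgf1/2/4-/- there were 2 higher and 1 lower, where 37% were called, 14.4% higher and 22.6% lower, with medians of 0.08 and -0.11; with density offsets 49.5% of the called genes were higher and the median of all genes was -0.02. Pcgf2/4-/- had 3 higher and 0 lower, where 21.6% of tested genes were called, 8.1% higher and 13.5% lower, and the members' median was 0.39; with density offsets 47.8% of the called genes were higher. Pcgf1-/- had 1 higher and 1 lower, where 32.3% were called, 13.9% higher and 18.4% lower, with medians of 0.11 and -0.05. In Pcgf3/5-/- 0 members were called by edgeR and 0 by DESeq2, where edgeR called 21.6% of tested genes, 11.1% higher and 10.4% lower; 1 member, Prdm14 (0.30, SE 0.11), had an unadjusted p under 0.05, and the 95% intervals of the other 8 included 0.

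**Figure D3:**
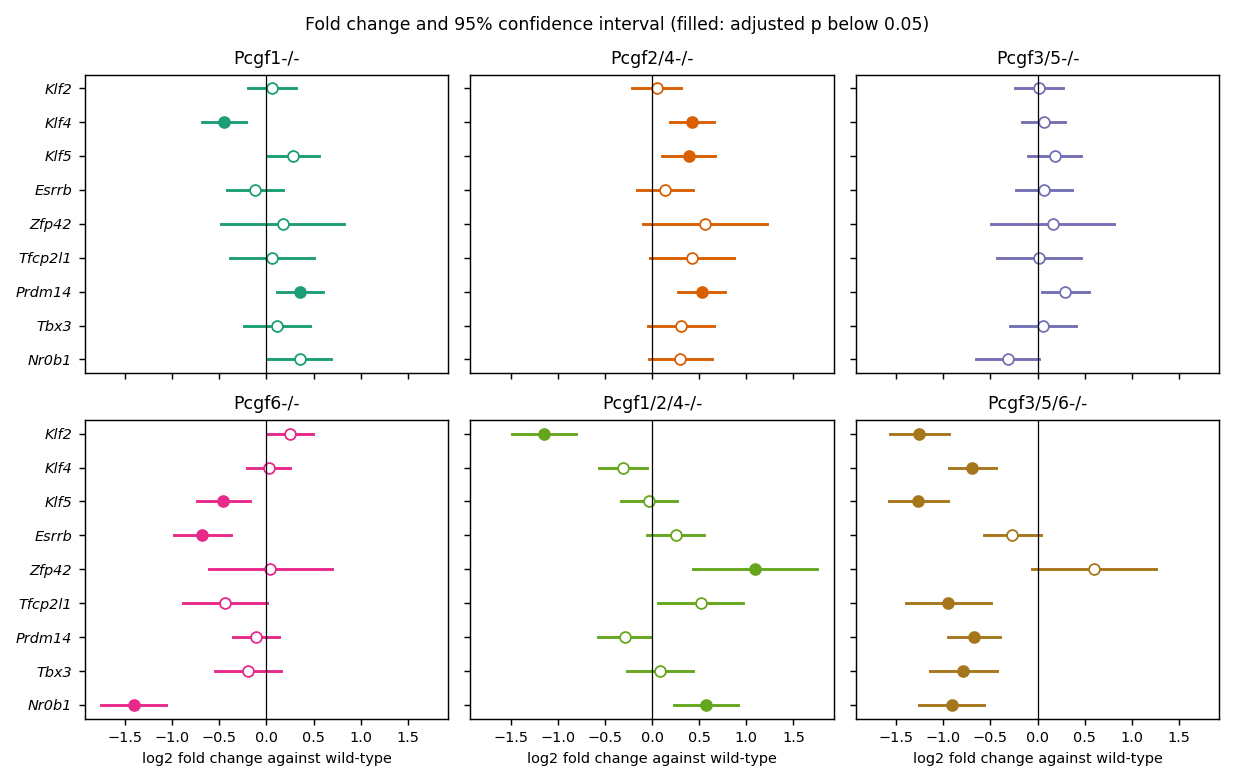
Log2 fold change of each member against wild-type (points) with its 95% confidence interval (lines) in the 6 knockouts; filled points had an adjusted p below 0.05 over all tested genes. In the libraries labelled Pcgf3/5/6-/-, 7 members lie below 0 with intervals that exclude it, while Pcgf3/5-/- has no filled point.

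The lines with 3 deletions were also set against the lines that lack part of the same genes. Against Pcgf3/5-/-, the libraries labelled Pcgf3/5/6-/- had the same 7 members lower (51.8% of tested genes called, 27.1% higher and 24.7% lower), from -1.45 for Klf5 to -0.60 for Nr0b1. Against Pcgf6-/- they had 5 lower (Klf2 -1.50, Klf5 -0.81, Klf4 -0.71, Tbx3 -0.60, Prdm14 -0.57) and 2 higher (Nr0b1 0.50, Esrrb 0.41), where 46% of genes were called, 19% higher and 27% lower. Of these, Prdm14 missed without replicate 2 labelled Pcgf3/5/6-/- (-0.43, adjusted p = 0.0718). Set against Pcgf2/4-/-, Pcgf1/2/4-/- had 4 lower (Klf2 -1.19, Prdm14 -0.82, Klf4 -0.73, Klf5 -0.42), where 30% of genes were called, 11.6% higher and 18.4% lower, of which the Klf5 call was lost without Pcgf2/4-/- replicate 1 or Pcgf1/2/4-/- replicate 1 (adjusted p = 0.0504 and 0.219). Set against Pcgf1-/-, it had 2 lower (Klf2 -1.20, Prdm14 -0.65) and 2 higher (Zfp42 0.92, Esrrb 0.37), where 41.6% of genes were called, 19.6% higher and 22% lower. The Esrrb call was lost when any 1 of the 4 libraries was left out (adjusted p = 0.0629 to 0.257), and its sign turned with loess offsets (-0.14). The Zfp42 call was lost without Pcgf1-/- replicate 1 (adjusted p = 0.231) or either Pcgf1/2/4-/- library (adjusted p = 0.135 and 0.0701), and its sign turned with density offsets (-0.01) and with depth as a covariate (-0.15).

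Of the 18 calls against wild-type, 10 kept direction and call under all 14 alternatives, which leave out the log2 threshold: the 7 in the libraries labelled Pcgf3/5/6-/-, Esrrb and Nr0b1 in Pcgf6-/-, and Klf2 in Pcgf1/2/4-/-. Of the 36 values not called, 21 were called under some alternative and 19 changed sign under some. Under the separate test against a log2 fold change of at least 1, 9 of those 10 calls were lost: Nr0b1 in Pcgf6-/- was called, and none in the other 5 comparisons with wild-type. The plot of alternatives shows where the members spread most, which was in Pcgf1/2/4-/-.

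**Figure D4:**
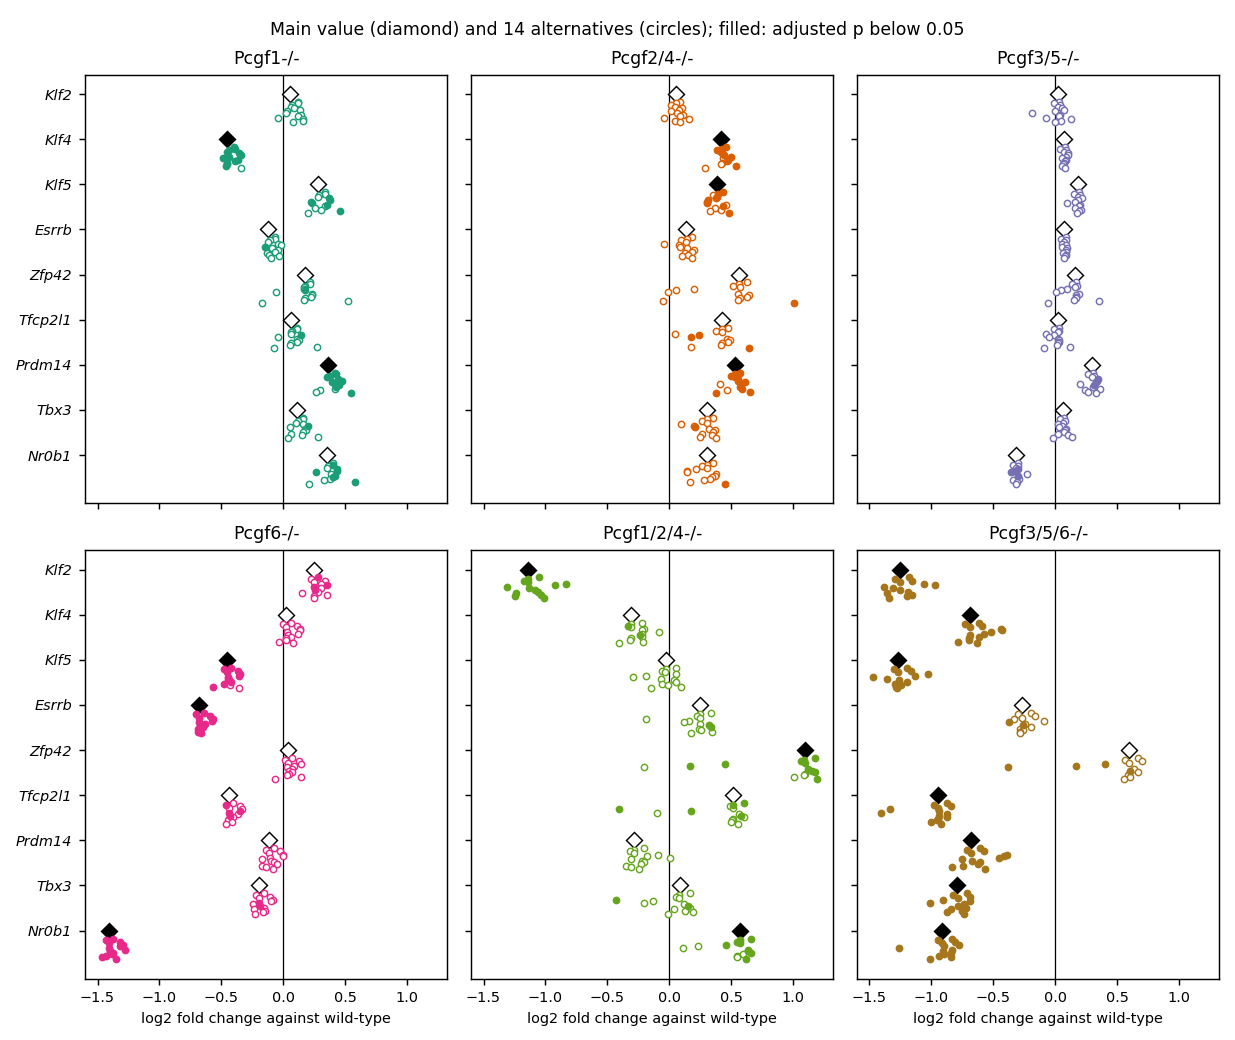
Log2 fold change against wild-type under the settings used for the text (black or open diamonds) and under 14 alternatives (circles); filled symbols had an adjusted p below 0.05. In Pcgf1/2/4-/-, Zfp42 ranges from -0.20 to 1.19 and Tfcp2l1 from -0.41 to 0.60, while Klf2 stays between -1.31 and -0.83.

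For each member, the gene with the most similar pattern was sought over the 14 libraries among 11607 other genes, by Pearson's r of log2 CPM. These were Ptprcap for Klf2 (r = 0.978), Spidr for Klf4 (0.957), Coasy for Klf5 (0.980), Golm1 for Esrrb (0.956), Psmb2 for Zfp42 (0.998), Tmem223 for Tfcp2l1 (0.991), Il23a for Prdm14 (0.965), Ccdc47 for Tbx3 (0.982) and Atp1b1 for Nr0b1 (0.973). Among the members themselves, Klf5 and Tbx3 were most alike (r = 0.966) and Klf2 and Zfp42 least (r = -0.624). Each r is a description of 14 libraries that share genotypes and differences in depth.

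Genes related to the members were taken from lists by role, and 3 of the lists are signalling arms. Of the 4 core factors, Pou5f1 (0.85) and Nanog (0.69) rose in the libraries labelled Pcgf3/5/6-/-, Sox2 (0.36) rose in Pcgf6-/-, and Pou5f1 (1.33), Nanog (0.70) and Sox2 (0.40) rose in Pcgf1/2/4-/-. With depth as a covariate Pou5f1 was -0.02 (adjusted p = 0.903) in Pcgf1/2/4-/- and -0.17 (adjusted p = 0.0835) in the libraries labelled Pcgf3/5/6-/-. With that covariate none of the 4 rose in Pcgf1/2/4-/-, and 1 rose and 1 fell in the libraries labelled Pcgf3/5/6-/-. With loess or density offsets 3 of the 4 rose and 1 fell in Pcgf1/2/4-/-. In the libraries labelled Pcgf3/5/6-/- 2 rose with loess offsets and 3 with density offsets, and none fell. Over all tested genes, 46.5% were called in Pcgf6-/-, 37% in Pcgf1/2/4-/- and 53.3% in the libraries labelled Pcgf3/5/6-/-. Of 12 other naive-state genes, 2 rose and 1 fell in Pcgf6-/-, and 5 rose and 2 fell in Pcgf1/2/4-/-. In the libraries labelled Pcgf3/5/6-/- 2 rose and 2 fell. These counts depended on how depth was handled: in the last, 5 rose and 5 fell with density offsets and 2 rose and 8 fell with the depth covariate. In Pcgf1/2/4-/- 3 rose and 4 fell with density offsets and 2 rose and 4 fell with the depth covariate, and in Pcgf6-/- both settings gave 5 higher and 3 lower. Dppa3 (Stella) rose in all 3, by 1.90, 1.15 and 2.57 in that order. Gbx2, a homeobox gene downstream of LIF, fell in all 3, with values of -3.20, -0.39 and -2.32; the Pcgf1/2/4-/- value was -0.07 (adjusted p = 0.680) with loess offsets. Nr5a2, whose protein NR0B1 binds, fell in Pcgf1/2/4-/- (-0.96) and in the libraries labelled Pcgf3/5/6-/- (-0.89).

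Of 7 genes of the LIF and STAT3 arm, 1 rose and 4 fell in Pcgf6-/-, 1 rose and 5 fell in Pcgf1/2/4-/-, and 1 rose and 3 fell in the libraries labelled Pcgf3/5/6-/-, where 46.5%, 37% and 53.3% of all tested genes were called. In Pcgf2/4-/-, where 21.6% were called, 1 rose and 4 fell. In the same order Lifr changed by -0.79, -0.62 and -0.53, Il6st by -0.72, -0.82 and -0.55, and Stat3 by -0.39, -0.88 and -0.61. With loess offsets Stat3 in Pcgf6-/- (-0.28, adjusted p = 0.154) and Il6st in the libraries labelled Pcgf3/5/6-/- (-0.26, adjusted p = 0.0681) were not called. Socs3, the feedback inhibitor, had values of -0.07, -0.20 and -0.08 that missed the test. Pim1, a STAT3 target, fell by 0.44 in Pcgf6-/- and rose by 1.20 and 0.65 in the other 2.

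Of 8 genes of the WNT and GSK3 arm, 6 fell in Pcgf6-/-, 5 in Pcgf1/2/4-/- and 5 in the libraries labelled Pcgf3/5/6-/-. None rose. In the same order 46.5%, 37% and 53.3% of all tested genes were called, and 18.6%, 22.6% and 25.3% were called lower. Axin2, a target of the pathway, changed by -1.62, -0.85 and -2.64, the partner factor Lef1 by -3.06, -1.96 and -2.04, and Cdx1 by -3.16, -1.39 and -4.60. With loess or density offsets 1 of the 8 rose in Pcgf6-/- and in the libraries labelled Pcgf3/5/6-/-. With depth as a covariate 3 of the 8 fell in Pcgf1/2/4-/-, and Axin2 there was -0.27 (adjusted p = 0.219). Tcf7l1, the repressor of Esrrb, had values of 0.17, -0.22 and 0.06 that missed the test. Of the other knockouts, Pcgf1-/- had 6 of the 8 lower and 1 higher, Pcgf2/4-/- had 1 lower and 3 higher and Pcgf3/5-/- had 1 lower, where 32.3%, 21.6% and 21.6% of all tested genes were called.

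Of 9 genes of the FGF and ERK arm, 3 rose and 4 fell in Pcgf6-/-. In Pcgf1/2/4-/- 4 rose and 2 fell (2 and 1 with the depth covariate). In the libraries labelled Pcgf3/5/6-/- 4 rose and 4 fell. In the same order 46.5%, 37% and 53.3% of all tested genes were called. Spry4, a feedback inhibitor, changed by -3.57, -1.22 and -0.60; the last 2 were -0.35 (adjusted p = 0.180) and 0.06 (adjusted p = 0.745) with depth as a covariate. Fgfr2, which PRDM14 is known to repress, had 1.20 CPM in wild-type, 5.62 in Pcgf6-/-, 1.17 in Pcgf1/2/4-/- and 33.1 in the libraries labelled Pcgf3/5/6-/- (means of 2), and rose by 4.75 in the last. Of 12 tested genes of the formative and primed states, 2 rose and 6 fell in Pcgf6-/-, 3 rose in Pcgf1/2/4-/- with none lower, and 8 rose and 2 fell in the libraries labelled Pcgf3/5/6-/-. With loess offsets the last count was 6 higher and 3 lower, and Pcgf1/2/4-/- had 1 lower. Otx2 fell by 2.38 in Pcgf6-/- and rose by 2.63 and 2.54 in the other 2. Dnmt3a rose by 1.08 in Pcgf6-/- and by 2.24 in the libraries labelled Pcgf3/5/6-/-. The FGF and ERK arm had 2 higher and 4 lower in both Pcgf1-/- and Pcgf2/4-/-, and 2 lower in Pcgf3/5-/-. Formative and primed genes had 3 higher and 4 lower in Pcgf1-/-, and 2 higher and 3 lower in both Pcgf2/4-/- and Pcgf3/5-/-. In Pcgf1-/-, Pcgf2/4-/- and Pcgf3/5-/-, 32.3%, 21.6% and 21.6% of all tested genes were called.

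Markers of other cell types differed between the genotypes, also where few members were called. The summed level of 7 trophoblast markers was 207 and 223 CPM in wild-type, 147 and 139 in Pcgf1-/- and 222 and 256 in Pcgf2/4-/-. It was 290 and 267 in Pcgf3/5-/-, 341 and 347 in Pcgf6-/- and 288 and 330 in Pcgf1/2/4-/-. The libraries labelled Pcgf3/5/6-/- had 1035 and 1071 CPM. In them 6 of 7 rose, Cdx2 fell and none was at 0, where 53.3% of all tested genes were called, 28% higher and 25.3% lower. In the same libraries the 7 fibroblast markers summed to 38.5 and 35.8 CPM against 15.0 and 10.8 in wild-type. In them 2 of the 7 were at 0, against 3 of 7 in wild-type. Only 4 of these fibroblast markers were tested there: 3 rose and 1 fell, and with density offsets 1 rose and 1 fell. The fibroblast sum was also higher in Pcgf6-/- (30.9 and 27.3). It was 18.7 and 13.6 in Pcgf3/5-/-, 6.56 and 6.63 in Pcgf1-/-, 1.68 and 3.19 in Pcgf2/4-/- and 1.07 and 1.81 in Pcgf1/2/4-/-. The 7 primitive endoderm markers summed to 43.0 and 46.6 CPM in the libraries labelled Pcgf3/5/6-/- against 76.2 and 69.2 in wild-type. The former had 0 and 1 of the 7 at 0, and each wild-type library had 4. Of the 4 tested, Gata4 and Pdgfra rose, Sox7 was not called, and Lama1, which made up most of the sum, fell. The endoderm sum was also low in Pcgf1/2/4-/- (42.7 and 43.8) and Pcgf1-/- (51.5 and 41.2). It was 55.3 and 76.9 in Pcgf2/4-/-, 94.5 and 71.9 in Pcgf3/5-/- and 76.9 and 75.2 in Pcgf6-/-. The 4 markers of 2-cell-like cells in the table summed to 78.2 and 77.8 CPM in wild-type, 344 and 383 in Pcgf6-/- and 207 and 210 in the libraries labelled Pcgf3/5/6-/-. They summed to 7.76 and 2.29 in Pcgf1-/-, 39.0 and 38.2 in Pcgf2/4-/-, 9.89 and 11.3 in Pcgf3/5-/- and 10.7 and 11.3 in Pcgf1/2/4-/-; Zscan4c and Zscan4d are near-identical copies whose counts may be split. Their part in the members' levels was not tested, and in these bulk libraries fewer cells of a type and less RNA per cell cannot be told apart.

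A member was scored as carrying a peak when a deposited peak fell no further than 2.5 kb from any of its GENCODE M1 starts. Most lines had 1 list an antibody, so differences between lines have no replicate check and lists differed in length. All 9 members had an H3K4me3 peak in wild-type, Pcgf1-/-, Pcgf2/4-/-, Pcgf3/5-/- and Pcgf6-/-, where 87.6% to 89.8% of genes with an annotated start had one (88.6% in wild-type). The series holds no H3K4me3 sample for the lines with 3 deletions. Folds below are the authors' enrichment of a peak over its control and describe that peak within its own list. In wild-type the strongest H3K4me3 peaks at the members had folds of 96.3 at Klf5, 76.0 at Klf4, 75.4 at Klf2, 63.7 at Tfcp2l1, 61.7 at Tbx3, 51.2 at Esrrb, 44.2 at Nr0b1, 28.8 at Prdm14 and 26.4 at Zfp42. Nr0b1 and Esrrb kept H3K4me3 peaks in Pcgf6-/-, the line where their transcripts were lowest.

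RING1B, the catalytic subunit shared by all PRC1 classes, had a peak at Esrrb alone in wild-type, where 16.3% of genes had one. Esrrb was also the only member with a RING1B peak in Pcgf1-/- (16.8% of genes) and Pcgf2/4-/- (19.4%). Klf5 joined Esrrb in Pcgf3/5-/- (17%), Prdm14 joined it in Pcgf6-/- (12.9%), and Prdm14 and Tbx3 joined it in the line labelled Pcgf3/5/6-/- (7.41%). Neither of the 2 Pcgf1/2/4-/- lists (8.19% and 7.49% of genes) held a RING1B peak at any member. The nearest wild-type RING1B peak lay 117 kb from Tbx3, 118 kb from Klf4, 134 kb from Prdm14, 625 kb from Klf2 and 7095 kb from Nr0b1. Klf2 and Nr0b1 had no RING1B or SUZ12 peak near a start in any of the lists of the 7 lines.

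At Esrrb the Polycomb peaks sat over the starts at chr12:87762594 and chr12:87762833, inside the gene's span of chr12:87702067-87862578. The wild-type RING1B peak covered chr12:87762385-87764515, with its summit 128 bases after the second of these starts (fold 16.7), and the SUZ12 peak covered chr12:87762377-87764443 (fold 16.1). The wild-type H3K4me3 peak there spanned 1478 bases (fold 17.5), while the strongest H3K4me3 peak of the gene spanned 18696 bases over the start at chr12:87811067 (fold 51.2). Counted from the outermost annotated start alone, Esrrb had no RING1B, SUZ12 or PCGF2 peak in wild-type. SUZ12 was at Esrrb in all 7 lines, Pcgf1/2/4-/- included (fold 11.6; 13.4% of genes there and 17.5% in wild-type). H3K27me3 was too, in lists that held 12.9% of genes in wild-type, 19.5% in Pcgf1-/-, 37.2% in Pcgf2/4-/-, 21.4% in Pcgf3/5-/-, 14% in Pcgf6-/-, 5.05% in Pcgf1/2/4-/- and 20.8% in the line labelled Pcgf3/5/6-/-. SUZ12 was further at Prdm14 in Pcgf6-/- (14.8% of genes) and at Prdm14 and Tbx3 in the line labelled Pcgf3/5/6-/- (13.2%).

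At Prdm14, RING1B, SUZ12 and H3K27me3 peaks were listed in the line labelled Pcgf3/5/6-/-, where its transcript was lowest. RING1B covered chr1:13116831-13117418 (fold 10.5), SUZ12 chr1:13116828-13117562 (fold 9.35) and H3K27me3 chr1:13116885-13117199 (fold 5.28), with summits 203, 174 and 221 bases after its start at chr1:13117244. In Pcgf6-/-, Prdm14 stood at 60.5 ± 1.74 CPM (SD, n = 2) against 65.5 ± 3.87 in wild-type. RING1B (fold 6.42), SUZ12 (fold 6.78), PCGF1 and PCGF2 peaks were listed at Prdm14 there. The line labelled Pcgf3/5/6-/- had no PCGF list, so these sets of peaks cannot be compared in full. At Tbx3, the RING1B peak in the line labelled Pcgf3/5/6-/- lay 1038 bases after a start (fold 5.93), and 2 SUZ12 peaks had their summits at -1811 and -2379 bases from another.

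Among peaks with a -log10 q of at least 10, the RING1B peaks at Klf5 in Pcgf3/5-/- and at Tbx3 in the line labelled Pcgf3/5/6-/- dropped out, as did the SUZ12 peaks at Prdm14 in Pcgf6-/- and at Tbx3; those at Esrrb did not.

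The PCGF lists held few members. PCGF1 had none in wild-type (2.49% of genes), Pcgf1-/- (0.0134%) or Pcgf3/5-/- (0.818%), Esrrb in Pcgf2/4-/- (5.75%) and Klf2, Esrrb, Prdm14 and Tbx3 in Pcgf6-/- (11.3%). PCGF2 had Esrrb in wild-type (14.2%), Esrrb and Zfp42 in Pcgf1-/- (13.9%), Esrrb in Pcgf3/5-/- (10.2%) and Klf5, Esrrb, Zfp42 and Prdm14 in Pcgf6-/- (22.4%). A PCGF2 peak at Klf5 was listed in Pcgf2/4-/-, the line labelled as lacking PCGF2 (5.04%). PCGF3 had no member in any list (1.27% of genes in wild-type, 0.617% in Pcgf2/4-/-, 3.25% in Pcgf6-/- and 0.0738% in Pcgf3/5-/-). PCGF6 had none in wild-type (7.5%) or Pcgf6-/- (2.11%), Tbx3 in Pcgf1-/- (23.2%), Klf5 and Tbx3 in Pcgf2/4-/- (42.2%) and Klf5 in Pcgf3/5-/- (7.09%). At a -log10 q of at least 10, the members with a PCGF1 peak were 0 in Pcgf2/4-/- and 2 (Esrrb and Tbx3) in Pcgf6-/-, the PCGF2 peak at Klf5 dropped out in both lines, and PCGF6 had 0 members in Pcgf1-/- and Pcgf3/5-/-. Nr0b1, the member with the steepest fall in Pcgf6-/-, had no PCGF6 peak in any of the lists.

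**Figure D5:**
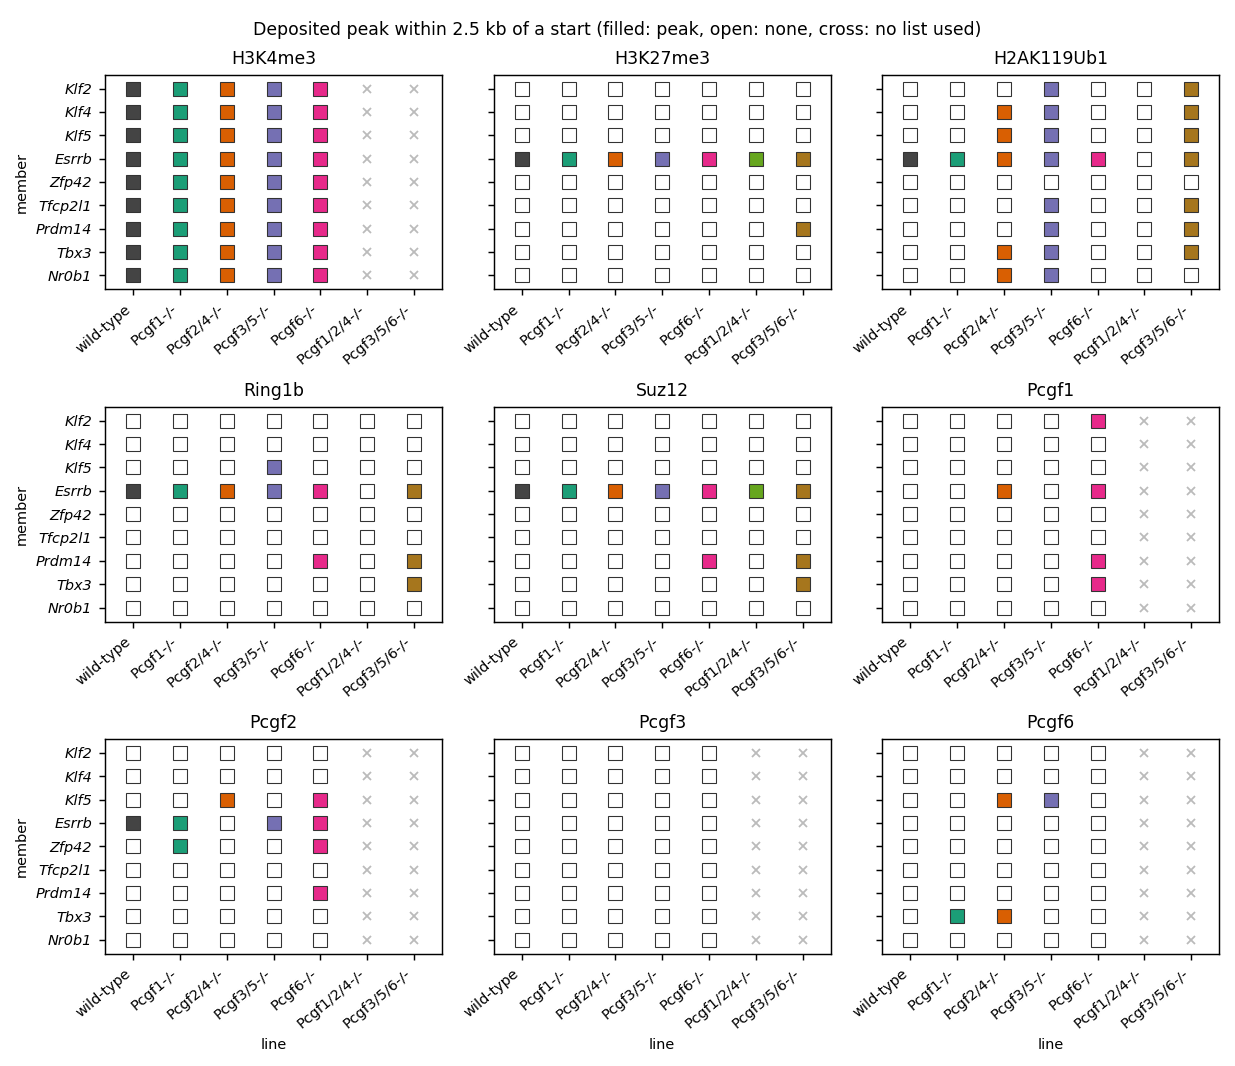
Deposited peak within 2.5 kb of an annotated start (filled square) or none (open square) for each member (rows) and line (columns), 1 panel an antibody; crosses mark lines with no list used. H3K4me3 is filled for all 9 members in 5 lines, and RING1B and SUZ12 are filled at Esrrb in wild-type, with Prdm14 and Tbx3 added in the line labelled Pcgf3/5/6-/-.

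In a conditional line that carries Ring1a-/- and floxed Ring1b, PCGF1 peaks were listed at 7 members (40% of genes) and PCGF2 peaks at 4 (9.67%), while the Ring1a/b-/- lists held none for PCGF1 (5.3%) and Zfp42 alone for PCGF2 (2.29%). H2AK119ub1, the mark that PRC1 places, was at Esrrb alone in wild-type (3.64% of genes), Pcgf1-/- (9.97%) and Pcgf6-/- (7.05%), and at no member in either Pcgf1/2/4-/- list (1.74% and 0.845%). It was at 5 members in Pcgf2/4-/- (45.2%), at 8 in Pcgf3/5-/- (79.7%) and at 7 in the line labelled Pcgf3/5/6-/- (38.8%). Zfp42 had no H2AK119ub1 peak in any of these lists. The share of all genes marked ran from 0.845% to 79.7% over these H2AK119ub1 lists, so the members' counts cannot be compared between them as such.

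In the authors' deposited tables of differential expression, none of the 54 member values was labelled as changed, since the smallest absolute log2 fold change labelled there was 2. By adjusted p alone, the authors' deposited tables put 7 members under 0.05 in the libraries labelled Pcgf3/5/6-/-, 4 in Pcgf1/2/4-/-, 3 each in Pcgf1-/-, Pcgf2/4-/- and Pcgf6-/-, and 0 in Pcgf3/5-/-.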

How the data were processed

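Per the labels' protocols, polyadenylated RNA was sequenced by a modified SMART-seq2 method and chromatin was immunoprecipitated after sonication, with Drosophila chromatin added for histone marks. The submitters' processing notes name mm9, TopHat2 2.1.1, Bowtie 1.2.2, Picard 1.62, HTSeq 0.7.2, DESeq2 3.7 and MACS2 2.1.1, without their roles. The authors deposited raw read counts per gene, which were tested as deposited with edgeR 4.0.16 (R 4.3.3; TMM, filterByExpr, quasi-likelihood F test, 2-sided, Benjamini-Hochberg over 15464 genes). The wild-type and knockout libraries were grouped by their labels. The authors' deposited tables of comparisons give, per gene, a mean level, a log2 fold change with its standard error and a test statistic. They also give a p-value, an adjusted p-value and normalized counts for each genotype. The deposited peak lists give each peak a signal value as a fold over control, a score, and −log10 of p and q-values, per the file headers' MACS2 format. The columns of gene names hold no measurement.

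Totals were 2147968 to 7848161 counts a library, and the biological coefficient of variation was 12.3%. Starts were taken from GENCODE M1 on NCBIM37, the files' build; of the 1189711 peaks, 1 lay past a chromosome end. On simulated counts for Pcgf6-/- against wild-type (13477 genes), 79.6% of 2-fold rises and 81.6% of 2-fold falls were recovered, with 0.0903% of unchanged genes called. Alternatives were RLE factors, DESeq2 1.42.0, other filters, 2 groups alone, a replicate block, loess offsets, a depth covariate, libraries thinned to the smallest total, a log2 threshold of 1 and each library left out; density offsets were added after seeing the data. Each member was named in each comparison with wild-type, with the most alike gene by Pearson's r and at most 3 genes a list by size of change plus those needed to describe it. Members and lists were chosen with earlier results of these data known. No column was left unmapped.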

Additional observations from a re-analysis of the deposited data

How the results depend on the processing

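All 7 calls in the libraries labelled Pcgf3/5/6-/-, with Esrrb and Nr0b1 in Pcgf6-/- and Klf2 in Pcgf1/2/4-/-, kept direction and call under the 14 alternatives run for each besides the log2 threshold of 1, at which only Nr0b1 in Pcgf6-/- of these 10 was called; Zfp42 in Pcgf1/2/4-/- was the only 1 of the 18 calls against wild-type whose sign turned. The cause of the changes below was not tested, except that the test against a log2 fold of at least 1 asks for larger changes and that the fits on 2 groups and on fewer libraries use fewer samples. Members called against wild-type, by comparison, were as follows. In Pcgf1-/- the count of 2 was 4 with loess offsets, 7 with density offsets (added after seeing the data), 5 with depth as a covariate, 4 with only the 2 groups and 0 at the log2 threshold of 1. In Pcgf2/4-/- the count of 3 was 5 with the depth covariate, 1 with only the 2 groups, and 0 both with thinned libraries and at the threshold. In Pcgf3/5-/- the count of 0 was 2 with loess offsets, density offsets, the depth covariate and only the 2 groups. In Pcgf6-/- the count of 3 was 5 with density offsets, 6 with the depth covariate and with only the 2 groups, and 1 at the threshold. In Pcgf1/2/4-/- the count of 3 was 5 with loess offsets, 1 with the depth covariate, 7 with only the 2 groups and 0 at the threshold; in the libraries labelled Pcgf3/5/6-/- the count of 7 was 0 at the threshold. For Pcgf1/2/4-/- against Pcgf1-/- the count of 4 was 2 with only the 2 groups and 0 at the threshold, which gave 0 against Pcgf2/4-/-, and 1 each for the libraries labelled Pcgf3/5/6-/- against Pcgf3/5-/- and Pcgf6-/-. Neighbour steps called rose from 9 of 54 to 14 with density offsets, 23 with the depth covariate and 15 with only the 2 groups. Counting from the gene's outermost start alone, 0 members in place of 1 had a Pcgf2, Ring1b or Suz12 peak in wild-type; a -log10 q of at least 10 left 2 of 4 members with a Pcgf1 peak in Pcgf6-/- and 0 of 1 in Pcgf2/4-/-.

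Leaving out 1 library at a time gave 1 to 3 calls in Pcgf1-/-, 0 to 5 in Pcgf2/4-/-, 0 in Pcgf3/5-/-, 2 to 3 in Pcgf6-/-, 1 to 3 in Pcgf1/2/4-/- and 7 in the libraries labelled Pcgf3/5/6-/-; 2 to 4 and 3 to 5 for Pcgf1/2/4-/- against Pcgf1-/- and Pcgf2/4-/-; 6 to 7 and 3 to 5 for those labelled Pcgf3/5/6-/- against Pcgf3/5-/- and Pcgf6-/-; and 4 to 16 neighbour steps. A genotype left with 1 library was assumed to vary like the others. Same-numbered libraries did not deviate together (r from -0.46 to 0.38 over 21 pairs of genotypes, 3 above 0.1), so the numbers were not taken to pair them. With the replicate block the calls were 2, 2, 0, 3, 3 and 7 in the 6 comparisons with wild-type in the order above; Klf5 in Pcgf2/4-/- lost its call (0.39, adjusted p = 0.0692), and Esrrb lost it in Pcgf1/2/4-/- against Pcgf1-/- (0.37, adjusted p = 0.0659).

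Signs turned for these log2 values. Past the threshold in the opposite direction were Tfcp2l1 (adjusted p = 0.0316) and Tbx3 (adjusted p = 0.0200) in Pcgf1/2/4-/- with loess offsets, and Zfp42 in the libraries labelled Pcgf3/5/6-/- with the depth covariate (adjusted p = 4.42e-05). With loess offsets, Esrrb was -0.039 in Pcgf2/4-/-, Tfcp2l1 -0.072 in Pcgf3/5-/-, Prdm14 0.00077 in Pcgf6-/-, and in Pcgf1/2/4-/- Klf5 was 0.052, Esrrb -0.19, Tfcp2l1 -0.41 and Tbx3 -0.43 (Esrrb -0.14 against Pcgf1-/-). With density offsets, Tfcp2l1 was -0.0094 in Pcgf3/5-/-, Tbx3 -0.13 in Pcgf1/2/4-/- and Zfp42 -0.0094 against Pcgf1-/-. With the depth covariate, Zfp42 was -0.057 and Tfcp2l1 -0.042 in Pcgf1-/-, Zfp42 -0.011 in Pcgf2/4-/-, Tfcp2l1 -0.051 in Pcgf3/5-/-, and in Pcgf1/2/4-/- Zfp42 was -0.20, Tfcp2l1 -0.10, Prdm14 0.0031 and Tbx3 -0.20 (Zfp42 -0.15 against Pcgf1-/-); Zfp42 was -0.38 in the libraries labelled Pcgf3/5/6-/-. Without a filter, Klf2 was -0.010 and Tfcp2l1 -0.0077 in Pcgf3/5-/- and Klf4 -0.00039 in Pcgf6-/-; thinned, Klf2 was -0.18 in Pcgf3/5-/-. Klf5 in Pcgf1/2/4-/- was 0.056 with RLE factors, 0.041 with only the 2 groups and 0.057 with DESeq2. With 1 library left out, the ranges that crossed 0 were, in Pcgf1-/-, -0.041 to 0.16 for Klf2, -0.17 to 0.52 for Zfp42 and -0.075 to 0.27 for Tfcp2l1; in Pcgf2/4-/-, -0.046 to 0.16 for Klf2 and -0.049 to 1.01 for Zfp42; in Pcgf3/5-/-, -0.079 to 0.12 for Klf2, -0.061 to 0.35 for Zfp42, -0.088 to 0.12 for Tfcp2l1 and -0.016 to 0.14 for Tbx3; in Pcgf6-/-, -0.037 to 0.079 for Klf4 and -0.072 to 0.14 for Zfp42; and in Pcgf1/2/4-/-, -0.15 to 0.092 for Klf5 and -0.014 to 0.19 for Tbx3.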
